A study of Mus musculus with 4 samples.

Results

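Pyy, 9130204L05Rik, Gm6166 and Mrgprb11-ps are 4 of the 47725 genes listed for a comparison of mouse skin between 2 genotypes. They were picked by name because they were abundant in control skin and far lower in the skin labelled cKO. Their low level in cKO is therefore how they were chosen and not a result, and no test of it is given. Pyy is the best known of them. The other members are an S100-like gene, a processed pseudogene and an unprocessed pseudogene.

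Control mice carried the floxed allele written Pp6fl/fl, and the other group is labelled cKO, which the series title links to K5 and the same floxed allele. K5 is read here as the promoter of keratin 5, which is active in basal keratinocytes; how the deletion was driven or induced is not stated in the labels. All mice were C57BL/6J and 17 weeks old, and each genotype had 2 libraries, numbered 2 and 3, of oligo(dT)-selected RNA from whole skin. Whether each library is a separate animal is not in the labels, so p-values measure the spread between libraries, which may be technical.

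Peptide YY, the product of Pyy, is a hormone best known from endocrine cells of the gut. It belongs to the neuropeptide Y family, whose members act on the Y receptors and are trimmed by peptidases such as DPP4. S100 proteins are small calcium-binding proteins, many of them made by keratinocytes. Fatty acid-binding proteins such as FABP5, the epidermal form, carry fatty acids inside cells. Mas-related G protein-coupled receptors, the Mrgpr family, sit on sensory neurons of the skin and on mast cells. A processed pseudogene is a copy of a messenger RNA inserted elsewhere in the genome, and an unprocessed pseudogene is a duplicated gene that no longer encodes an intact protein.

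The estimated counts summed to between 15837136 and 23407731 per library, with both cKO libraries below both controls. Ppp6c, the gene that the floxed allele targets, had 1390 and 1402 counts in control replicates 2 and 3 and 976 and 839 in cKO replicates 2 and 3, a log2 fold change of -0.09 ± 0.16 (SE; adjusted p = 0.810 in edgeR's quasi-likelihood test). This does not check the labels, since a gene-level count need not fall when some exons are deleted in some of the cells. In that test, 190 of the 17440 genes with enough counts passed an adjusted p of 0.05, and 0 passed without control replicate 2 or without control replicate 3. Markers of basal keratinocytes summed to 13261 and 13097 CPM (counts scaled to library size with edgeR's TMM) in control and to 20066 and 13580 CPM in cKO, so the labelled tissue showed its markers in every library.

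All 4 genes passed the filter on low counts, and in all 4 both cKO libraries lay below both control libraries. Of all 17440 tested genes, 27.7% showed such a separation downwards; nothing is read from the comparison, because this contrast chose the members. Ordered by fold change from the most negative, 9130204L05Rik stood at rank 4, Mrgprb11-ps at rank 17, Pyy at rank 18 and Gm6166 at rank 51. In a bulk tissue, fewer cells of a type and less RNA per cell cannot be told apart. The authors' deposited table gives log2 fold changes of -5.94 for Pyy, -8.16 for 9130204L05Rik, -4.50 for Gm6166 and -5.99 for Mrgprb11-ps.

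**Figure D1:**
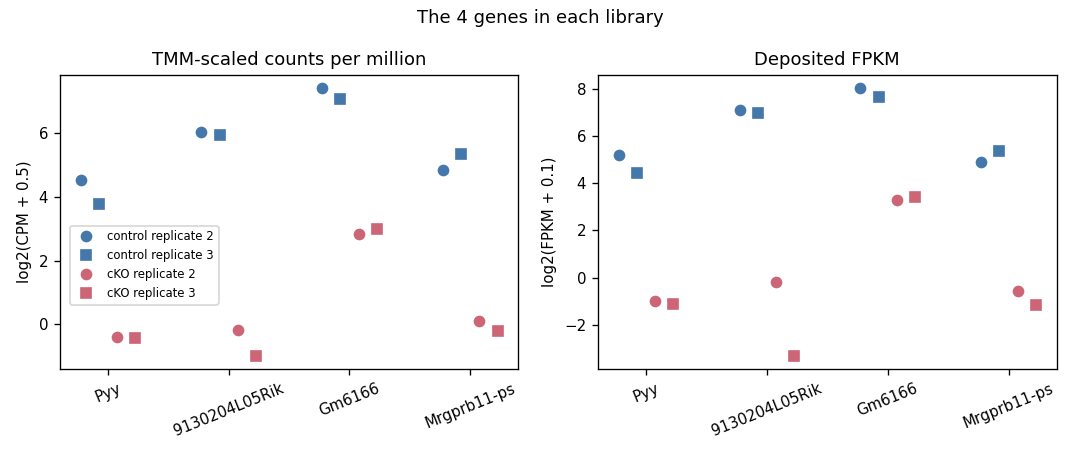
Level of each of the 4 genes in each library, as log2 of TMM-scaled CPM plus 0.5 (left) and log2 of the deposited FPKM plus 0.1 (right); blue points are control libraries, red points cKO libraries, circles replicate 2 and squares replicate 3. In each gene both red points lie below both blue points, and Gm6166 keeps the highest level in cKO, at 6.55 and 7.45 CPM.

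Scaled for transcript length, the genes did not stand at one level in control skin. Gm6166 had the highest FPKM, the length-scaled unit of the deposited table, 233 ± 40.3 (SD, n = 2), and ranked 188 among 26018 genes with a mean FPKM above 0. 9130204L05Rik followed with 133 ± 7.66 FPKM, at rank 329. Both of its control libraries lay below both of Gm6166. Mrgprb11-ps had 35.2 ± 8.08 FPKM, at rank 1511, and Pyy 29.2 ± 10.9 FPKM, at rank 1923. Those neighbours in the order overlapped, with 29.5 and 40.9 FPKM against 36.9 and 21.4 FPKM. In cKO, Gm6166 still had 10.2 ± 0.693 FPKM and ranked 5562 of 25184. The other members stood below 1 FPKM in both cKO libraries and overlapped one another there, with means of 0.460 ± 0.156 FPKM for Mrgprb11-ps, 0.385 ± 0.544 FPKM for 9130204L05Rik and 0.380 ± 0.0283 FPKM for Pyy.

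Pyy had 545 and 302 counts in control replicates 2 and 3, and 4 and 4 counts in the cKO libraries. On the scaled level this was 22.6 and 13.3 CPM against 0.254 and 0.238 CPM. The control libraries differed by 1.70 times, with replicate 2 the higher, while the cKO libraries were nearly alike, and the groups did not overlap. Scaled for depth, the pooled control counts were 73.5 times those of cKO, with an exact 95% counting interval of 37.1 to 171, and 1.37% of the mean control CPM was left. The fitted log2 fold change was -6.15. Without control replicate 2 it was -5.72, and without control replicate 3 it was -6.47.

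The mouse gene lies on chromosome 11, on the minus strand, and is annotated as protein coding. It is the only member with a promoter among the RefSeq sequences at hand, which hold 2 start sites for it. The 120 bases before the upstream start are shown because they hold a TATA-like run close to that start. Capitals mark TATAA (build GRCm38.p6, chr11:102107833-102107952, minus strand).
Pyy promoter: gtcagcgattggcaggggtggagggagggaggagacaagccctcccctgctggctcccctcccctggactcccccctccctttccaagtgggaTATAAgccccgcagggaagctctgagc
The first base of TATAA is at -27 from the upstream start and at -83 from the other. These 5 letters were chosen after the sequence had been seen, and 24.9% of the 32851 RefSeq promoters hold them on either strand. The other motifs were searched on both strands from 250 bases before to 50 bases after each start. CCAAT occurred 1 time, on the opposite strand, and 37.4% of promoters hold it. TATAAA, held by 13.6% of promoters, the AP-1 motif TGANTCA, held by 7.81%, and the CRE motif TGACGTCA, held by 1.79%, had no match in this window.

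Among the other ligands of the family, Ppy, which encodes pancreatic polypeptide and lies next to Pyy, had 0 counts in both controls and 0 and 6 counts in cKO. Npy, the gene of neuropeptide Y, had 12 and 4 counts in control and 16 and 179 counts in cKO. Nearly all of its cKO counts came from replicate 3, and both cKO libraries lay above both controls. Its log2 fold change of 4.08 ± 1.33 (SE) did not pass the edgeR quasi-likelihood test (adjusted p = 0.199). Between the coding sequences, 70.3% of 155 aligned columns were identical for Pyy and Npy, and a BLAST search with Pyy against all annotated transcripts matched 0 other genes.

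Y receptors showed different patterns. Npy1r had 146 and 153 counts in control and 117 and 216 in cKO, or 6.06 and 6.73 CPM against 7.44 and 12.9 CPM. Npy4r, whose product is the receptor that prefers pancreatic polypeptide, had 62 and 54 counts in control and 14 and 4 in cKO. Its scaled level was lower in both cKO libraries than in both controls, but the log2 fold change of -2.13 ± 0.65 (SE) did not pass the edgeR quasi-likelihood test (adjusted p = 0.179). Npy2r had 0 counts in every library, and Npy5r and Npy6r had at most 2. The peptidase genes came next. Dpp4, whose product trims peptide YY, had 27.3 and 36.7 CPM in control and 41.9 and 15.4 CPM in cKO, so that its groups overlapped. Mme, which encodes neprilysin, had 31.6 and 34.3 CPM against 43.5 and 84.4 CPM, a log2 fold change of 0.96 ± 0.34 (SE; adjusted p = 0.235 in edgeR's quasi-likelihood test).

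Of the 9 other genes of this system found in the table, 5 were tested and 0 passed, where 1.09% of all tested genes did. At an unadjusted p under 0.05 the count was 3, against 20.0% of all genes; DESeq2 called 1, edgeR's exact test 2 and limma voom 0, against 11.3%, 10.2% and 1.15% of the genes each of them tested. Their median log2 fold change was 0.67, beside -0.00 over all tested genes. The Npy call in DESeq2 had an adjusted p of 0.00664, and the edgeR exact test gave 0.0320. The other call of the exact test was Npy4r (adjusted p = 0.0266), which DESeq2 did not call (adjusted p = 0.104). The authors' deposited comparison gives Npy4r a false discovery rate of 0.0389.

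Peptide hormones must be cut out of precursors, and transcripts of such enzymes were detected in skin. Of 11 tested genes of prohormone processing, 0 passed the edgeR quasi-likelihood test, 2 had an unadjusted p under 0.05, and DESeq2 called 2, the exact test 1 and limma voom 0. Over all genes these shares were 1.09%, 20.0%, 11.3%, 10.2% and 1.15%. Pcsk5, which encodes a proprotein convertase, had 9.26 and 8.01 CPM in control and 40.4 and 87.8 CPM in cKO. That is a log2 fold change of 2.89 ± 0.43 (SE; adjusted p = 0.0629 in edgeR's quasi-likelihood test). Furin had 134 and 135 CPM against 197 and 190.4 CPM. The classical neuroendocrine convertase gene Pcsk2 was scarce, with 2 and 8 counts in control and 17 and 11 in cKO. The median over the list was 0.32.

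Of 21 other peptide hormone genes, 10 were tested and 0 passed, with 3 at an unadjusted p under 0.05; DESeq2 called 1, the exact test 2 and limma voom 0, to be read against the same shares. Calcb, the gene of the beta form of calcitonin gene-related peptide, had the most negative log2 fold change of that list. It had 313 and 334 counts in control and 27 and 6 in cKO. Both cKO libraries lay far below both controls, yet the log2 fold change of -3.74 ± 0.73 (SE) did not pass the edgeR quasi-likelihood test (adjusted p = 0.0898). Nts, the neurotensin gene, had 9 and 10 counts in control and 20 and 29 in cKO, and Adm, the adrenomedullin gene, 5.52 and 6.25 CPM against 10.7 and 10.7 CPM. Gcg, which gut endocrine cells express together with Pyy, had 0 counts in every library. The median over the 10 tested genes was 0.20.

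Markers of Merkel cells, the neuroendocrine cells of the epidermis, were low in both groups. Of 16 markers, 9 were tested and 0 passed, 0 at an unadjusted p under 0.05 and 0 in DESeq2, the exact test or limma voom. Over all genes these shares were 1.09%, 20.0%, 11.3%, 10.2% and 1.15%. The markers summed to 25.8 and 39.4 CPM in control and 21.8 and 42.3 CPM in cKO, so the sums overlapped. In 4 of the 9 both cKO libraries lay above both controls and in 1 below. Of all 17440 tested genes, 4382 lay above and 4836 below. The part of Merkel cells in the level of Pyy was not tested. Neurod1 was at 0 in every library, and Atoh1 had at most 3 counts. Krt8 (1.31 ± 0.56), Sox2 (1.21 ± 0.54) and Syp (-0.87 ± 0.37) had the smallest p-values, as log2 fold changes with SE.

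9130204L05Rik had 1586 and 1395 counts in control replicates 2 and 3, and 6 and 0 counts in cKO replicates 2 and 3. Scaled levels were 65.8 and 61.4 CPM against 0.381 and 0 CPM. The control libraries differed by 1.07 times, less than for any other member, and the groups did not overlap. Against the mean of the controls, cKO replicate 3 was at least 356-fold lower, taking a floor of 3 counts in that library, which is 0.179 CPM. Pooled over both cKO libraries, 0.300% of the mean control CPM was left, and the scaled ratio of control to cKO was 345, with a counting interval of 158 to 941. The fitted log2 fold change was -8.37. Because 1 cKO library is at 0, this value depends on that library, and it was -7.36 without cKO replicate 3.

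The gene is annotated as protein coding on chromosome 3, minus strand, and the deposited table describes its product as an S100 calcium-binding protein, ventral prostate like. Its coding sequence is 279 bases long, from the GENCODE M21 transcripts of build GRCm38. It is printed because the gene has no established symbol, and the letters are what a reader needs to recognise it. Capitals mark the start and the stop codon.
9130204L05Rik coding sequence: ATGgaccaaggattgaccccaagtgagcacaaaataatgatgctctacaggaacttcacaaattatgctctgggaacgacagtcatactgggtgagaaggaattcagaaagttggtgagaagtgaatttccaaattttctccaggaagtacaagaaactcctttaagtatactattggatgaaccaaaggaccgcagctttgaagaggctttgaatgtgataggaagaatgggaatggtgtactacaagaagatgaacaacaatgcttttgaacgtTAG
Aligned against all transcripts of that annotation with BLAST at an E value of 1e-05, it matched 0 other genes, so no copy that could share its reads was seen there. No gene overlaps it in the annotation.

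The S100a genes, a list written after the annotation had been read, were compared because of that description. Of 15 such genes, 12 were tested and 2 rose, the calprotectin subunit genes S100a8 and S100a9, while 0 fell. Of all tested genes, 0.740% rose. The median log2 fold change over the 12 was 0.24, and 4 of them had a negative one. After the 2 that rose, S100a7a had the smallest p, with 4.57 and 2.16 CPM in control and 24.8 and 23.1 CPM in cKO (log2 fold change 2.83 ± 0.42, adjusted p = 0.0629 in edgeR's quasi-likelihood test). So 0 of the tested S100a genes stood where 9130204L05Rik did, far lower in both cKO libraries.

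Its nearest neighbours in the table gave almost no reads. Gm7166 and Gm23697 had 0 counts in every library, and 4930529C04Rik had 1 count in 1 control. The nearest gene with more than 1 count in any library was Pglyrp3, which encodes a peptidoglycan recognition protein. It had 342 and 304 counts in control and 370 and 211 in cKO, so its scaled levels overlapped between the groups. The log2 fold change of Pglyrp3 was 0.39 ± 0.35 (SE; adjusted p = 0.607 in edgeR's quasi-likelihood test).

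Several cell type marker lists moved with the genotypes and so with all 4 genes. Of 14 sebaceous gland markers, 2 fell, Scd3 and Acsbg1, and all 14 had a negative log2 fold change, where 0.350% of all tested genes fell and 8741 of 17440 were negative. The median was -1.55, and the summed level was 9726 and 10437 CPM in control against 5083 and 2349 CPM in cKO. Of 10 markers of Langerhans and dendritic cells, Cd209a alone fell, all 10 were negative, and the sum was 2395 and 4272 CPM against 759.8 and 955 CPM. Neutrophil markers went the other way, with 6 of 9 rising, where 0.740% of all tested genes rose, and a sum of 23.2 and 16.9 CPM against 1474 and 981 CPM. Most of the cKO sum came from S100a8 (353 and 244 CPM) and S100a9 (857 and 509 CPM), which are also among the 6. As many S100 proteins are made by keratinocytes, the sum is not a measure of neutrophils alone. In edgeR's quasi-likelihood test 0 of 11 basal keratinocyte, 0 of 12 suprabasal, 0 of 17 hair follicle and 0 of 14 T cell markers passed. At an unadjusted p under 0.05 these counts were 6, 6, 7 and 10, in DESeq2 5, 6, 7 and 5, in the exact test 5, 6, 7 and 7, and in limma voom 0, 1, 0 and 0, against 20.0%, 11.3%, 10.2% and 1.15% of all genes in these 4 tests. The median over the T cell list was -1.51 on the log2 scale. Of its 14 markers, 11 were lower in both cKO libraries than in both controls, where 27.7% of all tested genes were, and 1 was higher. The list summed to 185 and 189.6 CPM in control and 176 and 279 CPM in cKO, so the sums overlapped. Most of each sum was Thy1, at 132 and 121 CPM in control and 152 and 227 CPM in cKO. The hair follicle list had a median of 2.56 with 0 of 17 negative. Its sum was 1910.1 and 282 CPM in control and 9689 and 2790.4 CPM in cKO, so libraries of one group lay far apart. The basal and suprabasal medians were -0.22 and -0.14, but their markers were mixed in direction. Both cKO libraries lay above both controls in 3 basal and 5 suprabasal markers, and below in 5 and 4. Of all 17440 tested genes, 4382 lay above and 4836 below. The part of cell composition in the levels of the 4 genes was not tested.

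Gm6166 had 4097 and 3058 counts in control replicates 2 and 3, and 103 and 125 counts in cKO replicates 2 and 3. Scaled levels were 170.04 and 135 CPM against 6.55 and 7.45 CPM. The libraries of each group were close to each other, the groups did not overlap, and more was left in cKO than of any other member, 4.59% of the mean control CPM. The scaled ratio of control to cKO was 21.8, with a counting interval of 19.1 to 25.0, and the fitted log2 fold change was -4.44.

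This gene is a processed pseudogene on chromosome 9, plus strand, and the deposited table describes it as an epidermal fatty acid-binding protein, the product of Fabp5 on chromosome 3. Its M21 transcript of 409 bases aligned with the coding sequence of Fabp5 over 409 columns, of which 402 were identical (98.3%). There were 5 mismatches and 2 gap columns, and the longest identical run was 179 bases. The stretch of 150 columns with the most differences is printed to show how little separates the copies. Capitals mark the bases that differ or are present in one copy only.
Gm6166: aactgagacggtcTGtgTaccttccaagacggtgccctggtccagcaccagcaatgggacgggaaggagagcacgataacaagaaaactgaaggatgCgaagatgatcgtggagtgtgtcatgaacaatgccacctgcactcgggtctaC
Fabp5: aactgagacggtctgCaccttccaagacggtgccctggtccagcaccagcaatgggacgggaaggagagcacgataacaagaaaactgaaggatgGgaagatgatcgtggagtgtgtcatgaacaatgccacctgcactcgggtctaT
A read that falls outside such positions could come from either gene, and the counts are estimates that divide such reads between genes. Values of Gm6166 are therefore uncertain. Its FPKM values rest on a model of 669 bases, longer than the 409 bases aligned here, and Gm18103, another processed pseudogene, overlaps it on the same strand in M21 and is not a row of the table.

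Fabp5 itself moved the opposite way. It had 11666 and 8626 counts in control and 39657 and 38489 in cKO, or 484 and 379.6 CPM against 2520.2 and 2294 CPM. Both cKO libraries lay above both controls, and Fabp5 rose by a log2 fold change of 2.48 ± 0.26 (SE; adjusted p = 0.0476 in edgeR's quasi-likelihood test). That call was lost without control replicate 2 (adjusted p = 0.253) and without control replicate 3 (adjusted p = 0.361). As a share of the summed counts of both genes, Gm6166 took 26.0% (exact 95% interval 25.3 to 26.7) and 26.2% (25.4 to 27.0) in control. In cKO its share was 0.259% (0.211 to 0.314) and 0.324% (0.270 to 0.386). These intervals treat the estimated counts as observed reads. They leave out the error in dividing shared reads between the genes, which was not measured. The sum of both genes was 654 and 514 CPM in control and 2527 and 2302 CPM in cKO, so the sum was higher in both cKO libraries. Counts are not scaled for length, and the FPKM values imply 669 bases for Gm6166 and 3567 for Fabp5. On FPKM, Gm6166 stood above Fabp5 in control, at 262 and 205 against 139.7 and 108. In cKO it stood below, at 9.72 and 10.7 against 702 and 618.

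**Figure D2:**
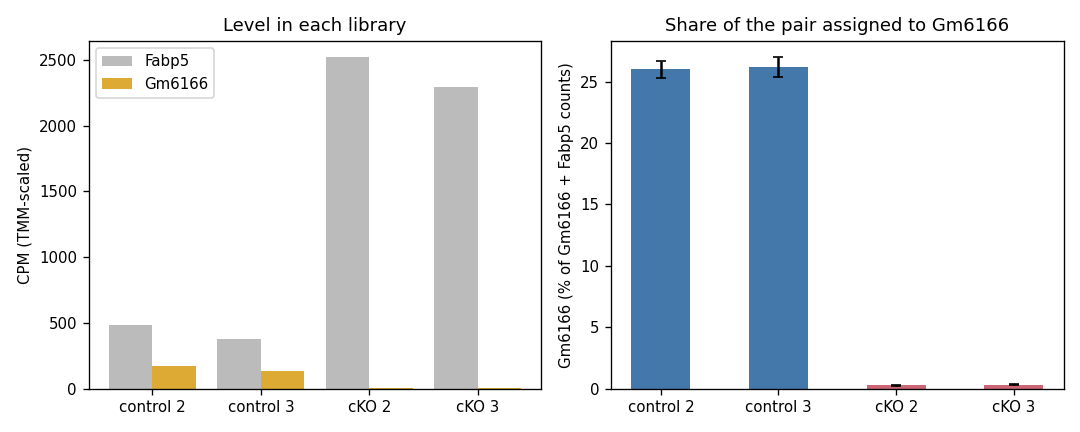
Left, TMM-scaled CPM of Fabp5 (grey bars) and Gm6166 (yellow bars) in each library; right, Gm6166 as a percentage of the counts of both genes, with exact 95% counting intervals as error bars. The share is near 26% in both control libraries and below 0.4% in both cKO libraries, while the Fabp5 bars are higher in cKO. The error bars leave out the error in dividing shared reads between the genes.

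Another 4 copies of Fabp5 were compared with Gm6166. Gm14328 (96.6% identical), Fabp5l2 (94.3%), Gm6100 (93.9%) and Gm13998 (93.8%) had at most 3 counts in any library, so none of them held reads on the scale of Gm6166 in either genotype. In the wider fatty acid-binding protein family, 5 of 11 genes were tested, and Fabp5 alone rose. Fabp4, the adipocyte form, had 281 and 346 CPM in control and 254 and 247 CPM in cKO, with a log2 fold change of -0.32 ± 0.17 (SE; adjusted p = 0.388 in edgeR's quasi-likelihood test).

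Of the genes beside Gm6166 on the chromosome, 8 were tested and 0 passed edgeR's quasi-likelihood test. Of the 8, 4 had an unadjusted p under 0.05, and DESeq2 called 2, the exact test 1 and limma voom 0. Over all genes these shares were 1.09%, 20.0%, 11.3%, 10.2% and 1.15%. In 4 of the 8 both cKO libraries lay below both controls, where 27.7% of all tested genes did so. In 2 they lay above, where 4382 of 17440 did so. Scamp5, a secretory carrier membrane protein gene, had 9.34 and 10.1 CPM in control and 16.8 and 23.1 CPM in cKO (log2 fold change 1.03 ± 0.24, with an adjusted p of 0.118 in edgeR's quasi-likelihood test). Ppcdc, a coenzyme A synthesis gene, had 18.2 and 19.1 CPM against 13.1 and 13.1 CPM (log2 fold change -0.51 ± 0.18). On the other side, Rpp25, which encodes a ribonuclease P subunit, had 45 and 37 counts in control and 14 and 11 in cKO. Cox5a, a cytochrome c oxidase subunit gene, had 88.0 and 83.4 CPM against 70.2 and 97.0 CPM, and its groups overlapped.

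Mrgprb11-ps had 686 and 908 counts in control replicates 2 and 3, and 9 and 6 counts in cKO replicates 2 and 3. Scaled levels were 28.5 and 40.0 CPM against 0.572 and 0.358 CPM. Control replicate 3 was 1.40 times control replicate 2, the groups did not overlap, and 1.36% of the mean control CPM was left. The scaled ratio of control to cKO was 73.8, with a counting interval of 44.6 to 132, and the fitted log2 fold change was -6.19.

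It is an unprocessed pseudogene on chromosome 7, minus strand, within the cluster of Mrgprb genes, and the table's best protein match for it is the receptor Mrgprb2. BLAST found matches in 34 other genes of the annotation, 0 of them with at least 90% identity over at least 100 bases. Identity was 76.8% with Mrgprb2, 76.7% with Mrgprb3, 74.6% with Mrgprb9-ps and 74.5% with Mrgprb1. The longest identical runs with these 4 genes were 36, 27, 34 and 32 bases. A window of 90 bases, from position 410 of the M21 transcript, is shown for the 3 family members closest to it in identity, and capitals mark bases that differ from Mrgprb11-ps.
Mrgprb11-ps: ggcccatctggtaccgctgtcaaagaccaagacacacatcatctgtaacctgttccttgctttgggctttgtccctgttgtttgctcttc
Mrgprb3: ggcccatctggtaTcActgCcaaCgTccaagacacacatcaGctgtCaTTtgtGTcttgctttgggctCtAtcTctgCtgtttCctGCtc
Mrgprb9-ps: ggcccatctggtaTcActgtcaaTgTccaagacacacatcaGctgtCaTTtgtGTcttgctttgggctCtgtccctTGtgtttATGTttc
Mrgprb2: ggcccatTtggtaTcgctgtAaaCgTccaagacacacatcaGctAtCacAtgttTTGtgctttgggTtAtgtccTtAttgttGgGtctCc
In this window, 18 bases differ in Mrgprb3, 17 in Mrgprb9-ps and 19 in Mrgprb2. Differences are spread along the window, unlike in the pair of Gm6166 and Fabp5.

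The nearest relatives on the chromosome with reads were Mrgprb3 and the pseudogene Mrgprb9-ps. Mrgprb3 had 196 and 223 counts in control and 13 and 0 in cKO, a scaled ratio of control to cKO of 22.4 (counting interval 12.9 to 42.4). Mrgprb9-ps had 206 and 224 counts in control and 10 and 0 in cKO, a ratio of 29.9 (16.1 to 62.7). In both genes the cKO libraries lay far below the controls, and cKO replicate 3 was at 0. Neither passed the edgeR quasi-likelihood test, with a log2 fold change of -4.44 ± 1.16 (SE) and an adjusted p of 0.138 for Mrgprb3, and -4.86 ± 1.10 with 0.110 for Mrgprb9-ps. DESeq2 called both, with adjusted p-values of 0.00114 and 3.80e-05.

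Mrgprg, a receptor gene outside the b subfamily, had 68 and 246 counts in control and 0 and 1 in cKO. The ratio of control to cKO was 218, with a counting interval of 38.9 to 8639.8, and the edgeR quasi-likelihood adjusted p was 0.0743. Its control libraries differed more from each other than those of any member.

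Other receptors of the family were not far lower in cKO, although Mrgprb2 too was lower in both cKO libraries than in both controls. Mrgprb2, the mast cell receptor for basic secretagogues in mice, had 6.97 and 8.62 CPM in control and 3.81 and 6.74 CPM in cKO, with a log2 fold change of -0.56 ± 0.38 (SE; adjusted p = 0.486 in edgeR's quasi-likelihood test). Mrgprb1 was higher in both cKO libraries, with 15.9 and 26.9 CPM against 5.02 and 8.49 CPM (log2 fold change 1.66 ± 0.41, with an adjusted p of 0.127 in edgeR's quasi-likelihood test). Mrgprx2 had 36 and 41 counts in control and 65 and 129 in cKO. Mrgpra2b had 1 and 0 counts in control and 90 and 42 in cKO, a ratio of cKO to control of 190.1 (33.5 to 7564; adjusted p = 0.0547 in edgeR's quasi-likelihood test). Mrgpra2a, with 1 and 0 counts against 29 and 14, had a ratio of 61.9 (10.5 to 2502). So within 1 receptor family, genes with the groups apart in either direction stood side by side.

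Mrgprx1 was scarce, with 1 and 4 counts in control and 15 and 27 in cKO. Mrgprf and Mrgpre had log2 fold changes of 0.61 ± 0.22 and 0.79 ± 0.31 (SE). Of the 32 family genes other than Mrgprb11-ps, 11 were tested and 0 passed the edgeR quasi-likelihood test, where 1.09% of all tested genes did. At an unadjusted p under 0.05 the count was 9, DESeq2 called 8, the exact test 8 and limma voom 0, against 20.0%, 11.3%, 10.2% and 1.15% of all genes, and the authors' deposited table lists 8 at its false discovery rate under 0.05, against 8.82% of all tested genes. In 7 of the 11 both cKO libraries lay above both controls and in 4 below, where 52.9% of all tested genes had groups apart in either direction, and the median log2 fold change was 0.79. The remaining 21 had at most 20 counts in any library.

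**Figure D3:**
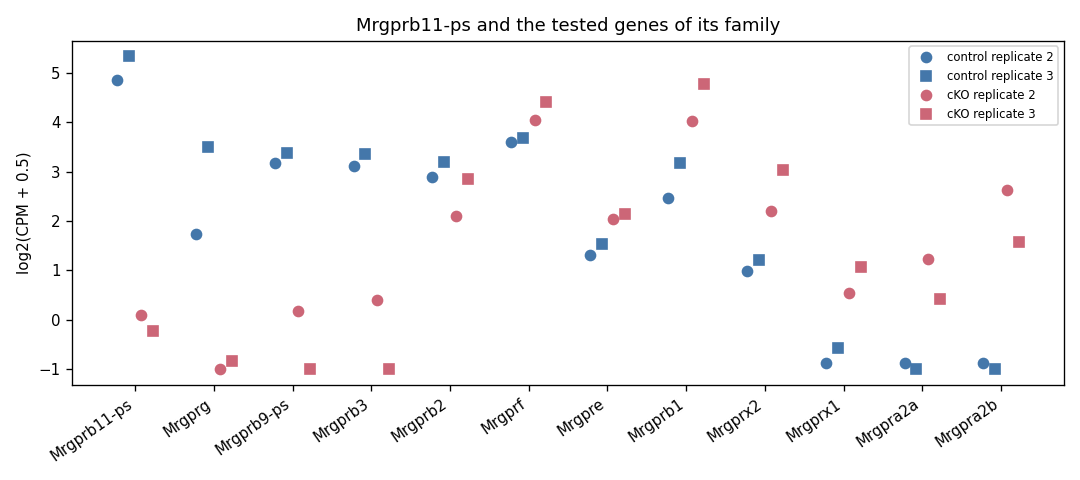
TMM-scaled level, as log2 of CPM plus 0.5, of Mrgprb11-ps and the 11 tested genes of its family in each library, ordered after the member by log2 fold change; colours and shapes are as in the plot of the 4 genes. Mrgprg, Mrgprb9-ps and Mrgprb3 have both red points far below the blue points, and the 7 genes from Mrgprf to Mrgpra2b have them above.

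Markers of mast cells and nerves, which are known to carry such receptors, were also compared between the groups. Of 9 mast cell markers, Hdc (log2 fold change 3.41 ± 0.17) and Cpa3 (1.91 ± 0.22) rose in edgeR's quasi-likelihood test, all 9 were higher in both cKO libraries, and their sum was 122 and 149.8 CPM in control against 441 and 704 CPM in cKO. Of all tested genes 0.740% rose, and 4382 of 17440 had both cKO libraries above both controls. Both mast cell calls were lost without control replicate 2 and without control replicate 3. Of 12 nerve and Schwann cell markers, 8 were tested and 0 passed, with 0 at an unadjusted p under 0.05 and 0 in DESeq2, the exact test and limma voom. Their sum was 431 and 487 CPM in control and 275 and 568 CPM in cKO. The sensory neuron marker Scn10a had 2 counts in 1 control and 0 counts elsewhere, too few to compare. The part of mast cells and nerves in the level of Mrgprb11-ps was not tested.

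Genes around the 4 members on the chromosome were mixed in direction, with 12 of the 21 tested at a negative log2 fold change. Of the 40 table genes that are the 5 nearest on each side, 21 were tested and 0 passed the edgeR quasi-likelihood test. At an unadjusted p under 0.05 the count was 8, DESeq2 called 6, the exact test 5 and limma voom 0, against 20.0%, 11.3%, 10.2% and 1.15% of all genes. In 8 of the 21 both cKO libraries lay below both controls, where 27.7% of all tested genes did so. In 4 they lay above, where 4382 of 17440 did so. The median log2 fold change was -0.30, beside -0.00 over all tested genes. Around Pyy, 4 neighbours were tested, with 0 at an unadjusted p under 0.05. The nearest of them, Mpp2, a membrane palmitoylated protein gene, had 8.72 and 8.45 CPM in control and 8.45 and 9.66 CPM in cKO. On its other side Gm11584 had 0 counts in every library and Gm11585 at most 1. Beside Mrgprb11-ps, the palmitoyltransferase gene Zdhhc13 was higher in both cKO libraries, with 57.1 and 44.5 CPM against 26.6 and 22.2 CPM, a log2 fold change of 1.06 ± 0.20 (SE; adjusted p = 0.0881 in edgeR's quasi-likelihood test). After Mrgprb3 and Mrgprb9-ps, the lowest log2 fold change among the tested neighbours was that of Rpp25, -1.17 ± 0.39 (SE).

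**Figure D4:**
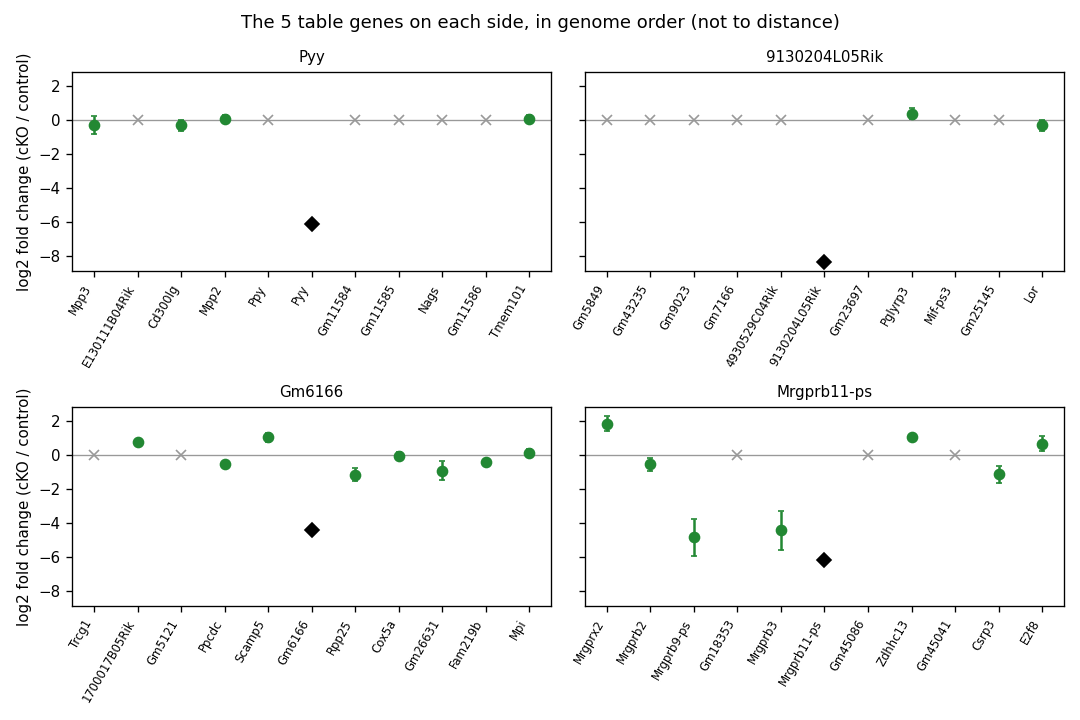
Log2 fold change (cKO over control) of the 5 table genes on each side of each member, in order along the chromosome and not to distance; black diamonds are the members, green points tested neighbours with SE, and grey crosses on the zero line neighbours with too few counts to test. The members lie at -6.15, -8.37, -4.44 and -6.19, and of the green points only those of Mrgprb9-ps and Mrgprb3 come near.

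Finally, other genes were ranked by how closely their profile over the 4 libraries matched each member. The measure is the distance between log2(CPM + 0.5) profiles, each centred on its own mean, among 16240 genes, and a smaller value means a closer match. Every close match is also a gene that differed between the same 4 libraries, so this is a description with no test. Pyy lay nearest to Serpina3j (distance 0.211), a clade A serpin gene, and Il12rb2 (0.731), an interleukin 12 receptor subunit gene. Serpina3j had 426 and 202 counts in control and 2 and 1 in cKO, so it shared with Pyy the higher level in control replicate 2. Il12rb2 had 376 and 218 counts in control and 2 and 8 in cKO, a ratio of 41.2 (22.3 to 86.5).

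Serpina3j (0.512) and Il12rb2 (0.515) were also near Gm6166. Among the members, Pyy and Gm6166 were the closest pair, at 0.402, and the other pairs lay between 1.06 and 2.36. A small distance here need not mean a like fold change, because the added 0.5 CPM flattens falls to very low levels. Pyy, at 0.254 and 0.238 CPM in cKO, lay below that value. Fitted log2 fold changes were -6.15 for Pyy, -4.44 for Gm6166, -6.19 for Mrgprb11-ps and -7.07 for Serpina3j. 9130204L05Rik was nearest to Serpina3b (0.575) and to the beta-defensin gene Defb8 (0.621), then to Paqr7 (1.14), a membrane progestin receptor gene. Defb8 had 2576 and 1511 counts in control and 5 and 0 in cKO, so it too was at 0 in cKO replicate 3. Mrgprb11-ps was nearest to Skint7 (0.310), a member of an epidermal immunoglobulin-like family, Ear2 (0.436), an eosinophil-associated ribonuclease gene, and Paqr7 (0.483). Those 3 genes had the higher control level in replicate 3, as Mrgprb11-ps did. On FPKM, 5 of the 10 nearest genes of Pyy were shared, and 7 of 10 for each of the other members.

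**Figure D5:**
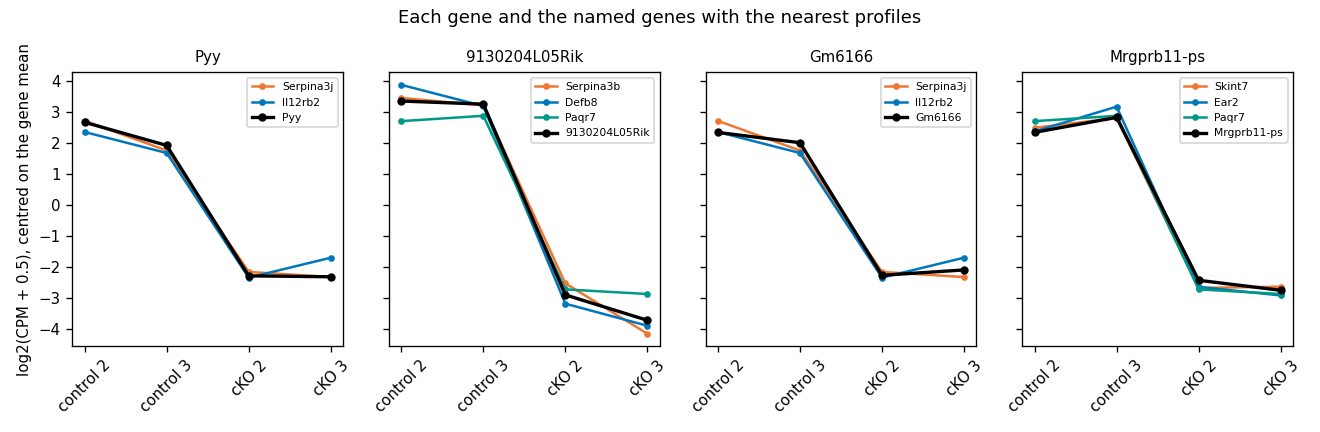
Profile of each member (black) and the genes named as nearest to it (coloured) over the 4 libraries, as log2 of TMM-scaled CPM plus 0.5, centred on each gene's mean; lines join libraries only to show which points belong together. In the Pyy and Gm6166 panels the members and Serpina3j are higher in control replicate 2 than in control replicate 3, and in the Mrgprb11-ps panel all 4 genes are higher in control replicate 3.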

How the data were processed

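Whole-skin RNA of 2 control and 2 cKO libraries was analysed. The Ctr columns of the table were taken as the floxed group, the only one besides cKO. The counts are expected counts, per the submitters' processing notes from RSEM, and the deposited values are whole numbers. The FPKM values and the log2 fold change, p-value and false discovery rate per gene in the deposited table are the authors', and the notes name edgeR. The notes name the build mm8, while 98.9% of the identifiers match GENCODE M21 on GRCm38. M21 gave names, neighbours and transcripts, and gene coordinates are not printed. No source used here names an aligner or strand setting, so reads of overlapping genes cannot be told apart. Of the table's lines, 4 were empty and are not analysed here, and 27 symbols turned into dates were restored through the identifier.

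The 4 members and all gene lists were chosen with earlier results of these data known. The main test was edgeR 4.0.16 quasi-likelihood (R 4.3.3, filterByExpr, TMM), cKO against control, Benjamini-Hochberg adjusted over 17440 genes at 0.05. SE is the unshrunken log2 fold change over the square root of F, and printed fold changes are shrunken. DESeq2 1.42.0, edgeR's exact test, limma 3.58.1 (voom, and on log2 FPKM with 0.1 or 1 added), other scalings and filters, a replicate block and leaving out each library were alternatives. Named genes are the members, their 3 nearest genes by profile, all tested Y-system and Mrgpr genes, the 2 nearest table genes per side, and up to 3 genes with the smallest p, or the called ones, in each other list. Of the genes this rule takes, 1 is not reported here. Fabp5, its copies and S100a genes were added after the annotation was read, and genes of low count were named for being at 0. Thy1 was named for its part in a sum. Counting intervals are exact Clopper-Pearson at 95%. These intervals, and floors of 3 counts, include no error but that of counting. Replicates were not copies of one library (chi-square per gene 24.2 for control, 93.6 for cKO). Sequences were aligned with Biopython 1.88 and BLAST 2.17.0, and promoters are from RefSeq on GRCm38.p6. The scripts were tested on simulated data.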

Additional observations from a re-analysis of the deposited data

How the results depend on the processing

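Because the 4 genes were chosen for their low cKO level, their negative log2 fold change under all 14 alternatives is no support. With 1 added to FPKM it was -4.40 for Pyy, -6.65 for 9130204L05Rik and -4.62 for Mrgprb11-ps, since a larger pseudocount shrinks low values. For 9130204L05Rik limma voom gave -9.16. Leaving out 1 library gave -13.40 to -7.36, the first without cKO replicate 2, where the remaining library is at 0 and the value depends on the prior count. Counts of calls moved with the test. Over all genes the 190 calls became 1886 in DESeq2, 1780 in the exact test, 1 and 23 with 0.1 and 1 added to FPKM, 883 with no filter and 0 to 1469 when 1 library was left out. Y-system calls were 1, 2 and 0 to 3 in DESeq2, the exact test and without 1 library. Mrgpr calls were 8, 8 and 0 to 4, with 4 when no filter was used. Neighbour calls were 6, 5 and 0 to 4, with 1 when no filter was used and 1 with 10 genes per side. Hormone and processing calls were 3, 3 and 0 to 3, with 2 when no filter was used. Marker calls went from 11 to 56, 56 and 0 to 46, with 36 when no filter was used and 0 and 2 on FPKM. Same-numbered libraries deviated together (correlation 0.457 over 17440 genes). The labels do not say whether libraries of the same number were paired, and with 2 pairs this was not tested. With the replicate block, 1177 genes were called, including 4 Mrgpr genes (among them Mrgprg, Mrgpra2b and Mrgprb1, adjusted p = 0.0175, 0.0211 and 0.0271 in edgeR's quasi-likelihood test), 1 neighbour, 2 hormone or processing genes and 42 markers. The cause of these shifts was not tested. Among named genes, the Fabp5 call was also lost on FPKM (adjusted p = 0.0628 and 0.0579 in limma). Where a left-out library leaves 1 in a group, that library is assumed to vary like the other group. Depth limits the members in cKO, where Pyy, 9130204L05Rik and Mrgprb11-ps rest on 15 counts or fewer in all.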

Other observations

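Of 12573 genes with at least 100 counts in both control libraries, 6 had 0 counts in cKO replicate 3, 1 had 0 in cKO replicate 2 and 0 had none in both. The 6 were Defb8, 9130204L05Rik, Mrgprb9-ps, Mrgprb3, Gm3654 and F830045P16Rik, and the other was Rnase2a, a ribonuclease gene with 143 and 291 counts in control and 0 and 2 in cKO. Gm3654, a pseudogene, had 189 and 185 counts in control and 14 and 0 in cKO, and F830045P16Rik had 124 and 118 against 2 and 0. These genes were named after their values had been seen. Of the 6, 9130204L05Rik is 1 of the 4 genes described above, and Mrgprb3 and Mrgprb9-ps are neighbours of another.

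Without the members, 7 of 538 tested pseudogenes (1.30%) had a log2 fold change of -4 or lower, against 55 of 15155 protein-coding genes (0.363%). In edgeR's quasi-likelihood test 2 pseudogenes fell and 1 rose, against 54 and 125 protein-coding genes. The 7 pseudogenes had 13 to 224 counts per control library, and Mrgprb9-ps and Gm3654 had the most. The difference between the gene types was not tested.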
